A study of Oryctolagus cuniculus with 4 samples.

Results

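RLA-DR-ALPHA and RLA-DMB are the rabbit genes of MHC class II antigen presentation described here. Their RNA was measured in ligamentum flavum, an elastic ligament that runs between the arches of adjacent vertebrae. They are 2 of 1489 genes that could be named on the array, and were measured by all probes designed on a RefSeq transcript of either gene, 7 of 43603 probes, with 2 probes for RLA-DR-ALPHA and 5 for RLA-DMB. The genes were chosen by their scaled signals on these 4 arrays, with the differences between arrays known, so those differences are a description and are not tested.

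Male rabbits had the muscle over L3/4 resected and L2/3 and L4/5 fused posterolaterally with instrumentation at the age of 18 weeks, and ligament was taken 16 weeks later, at 34 weeks. Samples came from the intervertebral stress concentration (ISC) level, which is the unfused L3/4 between the fusions, from the fused levels themselves, and from control ligament of each, called here the L3/4 control and the L2/3-L4/5 control. All 4 labels carry the same surgical protocol and the same 16 weeks, so it is not stated whether control animals had surgery, nor is the number of animals behind a sample or whether RNA was pooled. Each group was hybridised to 1 single-colour (Cy3) Agilent array, all 4 on 1 slide, so no value has a spread between animals and no p-value is given. A contrast of the ISC and fused arrays together against both controls was not tested either, since these same values chose the genes.

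MHC class II molecules are pairs of an alpha and a beta chain that show peptides from engulfed proteins to CD4 T cells, and in most tissues they mark macrophages, dendritic cells and B cells. RLA-DR-ALPHA encodes the alpha chain of the classical DR molecule. RLA-DMB encodes the beta chain of DM, which pairs with the product of RLA-DMA and, as known from human and mouse, exchanges the placeholder peptide in the groove of class II molecules for antigen. Class II genes are switched on by the coactivator CIITA, which interferon gamma induces in many cells that otherwise lack them. In whole ligament, more cells of a type and more RNA per cell cannot be told apart.

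Both genes had their highest signal at the fused levels and their next highest at the ISC level, above both controls, in all 7 probes. Of 12741 features well above background on all 4 arrays, which leave out RLA-DMB, 7.65% had this order. RLA-DR-ALPHA was 2.20-fold higher at the ISC level than in the L3/4 control and 4.28-fold higher at the fused levels than in the L2/3-L4/5 control. RLA-DMB was not well above background on any probe in the L3/4 control, and the ISC level was at least 6.46-fold higher on its brightest probe. At the fused levels that probe was 5.22-fold higher than in the L2/3-L4/5 control. RLA-DMA, the partner of RLA-DMB, was at −0.30 for the ISC level against the L3/4 control on the log2 scale, or 0.05 with normexp background correction, and at 1.95 for the fused levels against theirs.

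Signals are given as Feature Extraction's processed signal with its own error estimate for the single spot, and differences as log2 of that signal after each array's 75th percentile was set to 0. The brighter probe of RLA-DR-ALPHA, A_04_P028551, had a signal of 207.2 ± 20.8 at the ISC level, 53.5 ± 5.49 in the L3/4 control, 340.4 ± 34.1 at the fused levels and 67.6 ± 6.96 in the L2/3-L4/5 control. On the scaled log2 scale these are levels of 1.14, 0.004, 2.0 and −0.10 in the same order of arrays. The ISC and fused arrays lay above both controls, and the controls lay close together. The dimmer probe, A_04_P102067, had signals of 55.0 ± 5.66 at the ISC level, 11.8 ± 1.72 in the L3/4 control, 131.7 ± 13.3 at the fused levels and 22.6 ± 2.77 in the L2/3-L4/5 control. Its order of arrays was the same at the top, while the L3/4 control was the lower of the controls. Both probes were well above background on all 4 arrays, none of their spots was flagged or saturated, and each had 1 spot per array.

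For RLA-DR-ALPHA, the ISC level minus the L3/4 control came to 1.14 ± 0.21 (log2 difference, error carried over from the 2 spots and silent on animals), and to 1.40 ± 0.26 on the dimmer probe. Set against the L2/3-L4/5 control in place of the matched one, the brighter probe gave 1.25 ± 0.21 and the dimmer 0.92 ± 0.23, which is under 2-fold. Both arrays measured 13729 features (genes, or transcripts without a name). The ISC level was higher by 2-fold or more in 9.08% of them and lower by as much in 10.5%, the median difference was −0.17, and 965 features (7.03%) had a larger difference than RLA-DR-ALPHA. The difference was 0.79, below 2-fold, with normexp background correction, a setting that adds an offset and so draws ratios of dim spots towards 0.

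For the fused levels minus the L2/3-L4/5 control, RLA-DR-ALPHA came to 2.10 ± 0.21 on the brighter probe and 2.31 ± 0.23 on the dimmer. Against the L3/4 control the same probes gave 1.99 ± 0.21 and 2.80 ± 0.25. The fused levels were higher by 2-fold or more in 7.84% of 13717 features and lower by as much in 9.15%, the median was −0.14, and 338 features (2.46%) exceeded RLA-DR-ALPHA. Between the controls, L3/4 minus L2/3 and L4/5, the brighter probe gave 0.11 ± 0.21 and the dimmer −0.49 ± 0.27, so the probes differ in sign there and the order of the controls is not settled. In that comparison 8.39% of 13137 features were higher by 2-fold or more and 9.19% lower by as much.

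**Figure D1:**
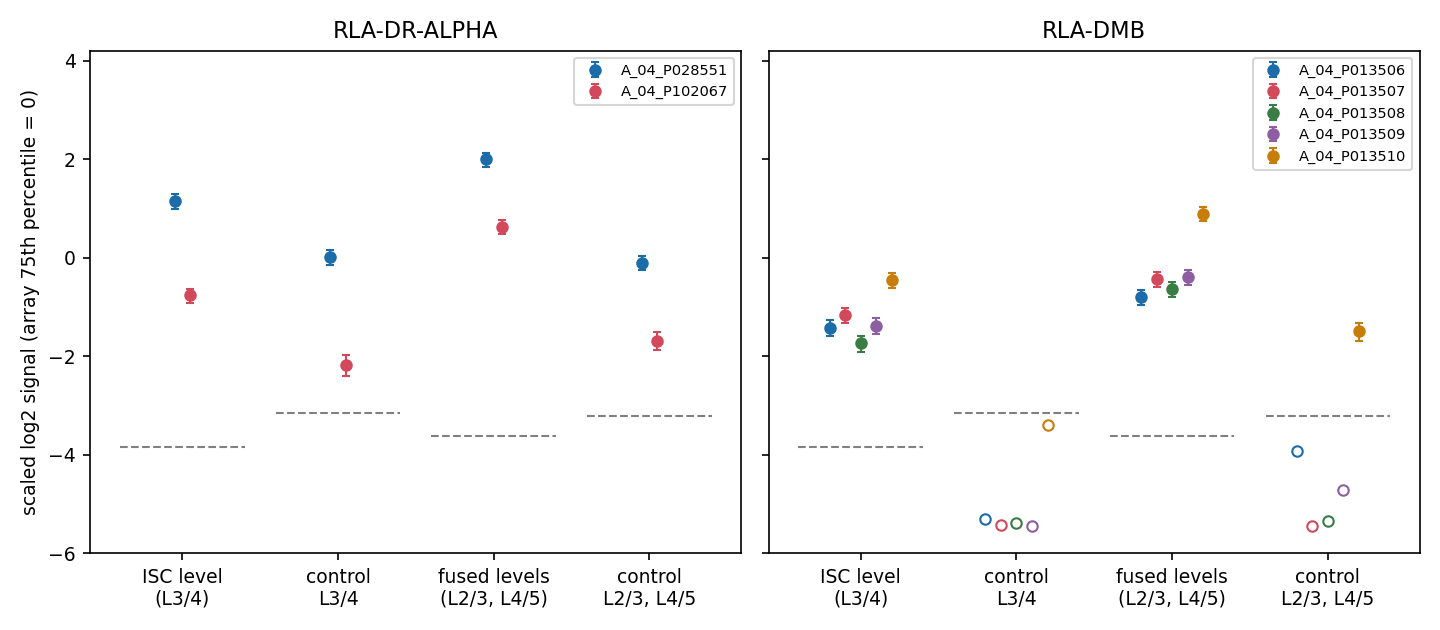
Scaled log2 signal (y axis, each array's 75th percentile at 0) of the 2 probes of RLA-DR-ALPHA (left) and the 5 probes of RLA-DMB (right) on the 4 arrays (x axis). Filled points are well above background, with Feature Extraction's error of the spot as bars, open points are not, and dashed lines mark the lowest signal of any probe well above background on that array. All 7 probes are highest at the fused levels and next highest at the ISC level.

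RLA-DMB was a dim gene in the controls. Its brightest probe, A_04_P013510, had a signal of 68.2 ± 6.99 at the ISC level, 5.09 ± 1.45 in the L3/4 control, 158.2 ± 15.9 at the fused levels and 25.8 ± 3.23 in the L2/3-L4/5 control. All arrays but the L3/4 control were well above background on this probe, with scaled log2 levels of −0.46 at the ISC level, 0.89 at the fused levels and −1.49 in the L2/3-L4/5 control. The other probes gave 28.1 to 41.9 at the ISC level and 49.1 to 65.1 at the fused levels, where all of them were well above background. In the controls the same 4 probes gave 1.23 to 1.34 for L3/4 and 1.67 to 4.77 for L2/3 and L4/5, and none was well above background. The ISC and fused arrays thus lay above both controls on every RLA-DMB probe, though these are probes of 1 gene on the same arrays. The share of features with this pattern was not counted for genes below background in a control.

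Where a control was not well above background, its signal was replaced by that of the dimmest probe that still passed as well above background there, or kept where it was higher itself, which makes the ratio a bound. The dimmest such signal was 6.01 in the L3/4 control and 7.82 in the L2/3-L4/5 control. The bounds do not carry the errors of the spots, so the true ratio could lie somewhat below them. For the ISC level against the L3/4 control all 5 RLA-DMB probes gave only bounds, from at least 2.66-fold to at least 6.46-fold higher, the last on the brightest probe. Of 2293 features well above background at the ISC level and not in that control, 21.8% had a bound of at least 2-fold higher, and 32 (1.40%) had a larger bound than RLA-DMB. Against the L2/3-L4/5 control the brightest probe was measured on both arrays, and the ISC level was higher by 1.03 ± 0.23, which is close to 2-fold. The other 4 probes gave bounds of at least 2.79-fold to at least 4.15-fold higher against that control.

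For the fused levels against the L2/3-L4/5 control, the brightest RLA-DMB probe gave 2.38 ± 0.23, and 284 of the 13717 features (2.07%) had a larger difference. The other 4 probes were at least 5.34-fold to at least 7.09-fold higher. Against the L3/4 control the brightest probe was at least 16.5-fold higher at the fused levels. Between the controls, the L3/4 control was at least 3.15-fold lower than the L2/3-L4/5 control on that probe. A bound of at least 2-fold lower was seen in 38.3% of 1395 features well above background in the L2/3-L4/5 control and not in that of L3/4. The other 4 probes were below background in both controls and give no value there.

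The ISC level lay below the fused levels on every probe of both genes. The log2 difference, ISC level minus fused levels, was −0.85 ± 0.20 and −1.39 ± 0.21 on the 2 probes of RLA-DR-ALPHA. On the RLA-DMB probes it ranged between −0.62 ± 0.22 and −1.35 ± 0.21. These arrays come from different lumbar levels as well as different mechanical conditions. The order of fused levels, then ISC level, then both controls was found in 7.65% of 12741 features well above background on all 4 arrays. Counted after the values were seen, 43 of these features (0.337%) had the ISC and fused arrays at least 2-fold above both controls, and 6 of the 43 were among the 886 named genes. Among them were E2F6, SPTLC1, HGF, PTGS2 and RLA-DR-ALPHA, the last with a gap of 1.14 between the ISC level, the lower of these arrays, and the L3/4 control, the higher of the controls. In the opposite direction the count was 62 features (0.487%). RLA-DMB could not enter this count, as it was not well above background in the L3/4 control.

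**Figure D2:**
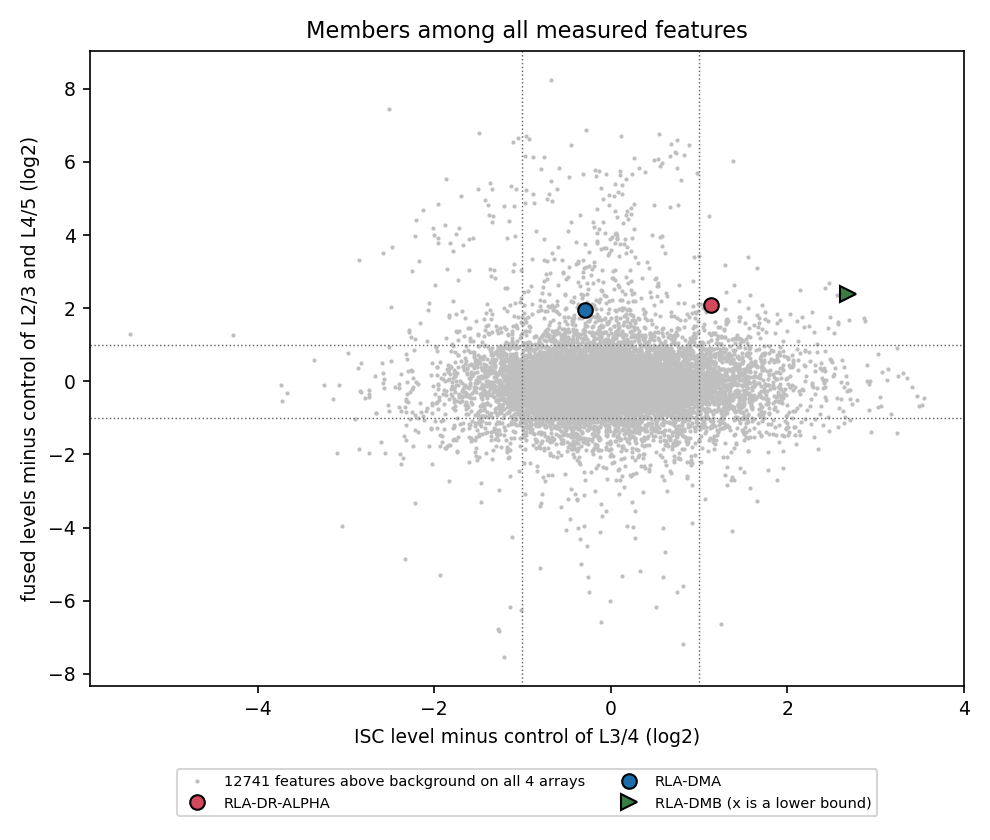
Log2 difference of the ISC level from the L3/4 control (x axis) against that of the fused levels from the L2/3-L4/5 control (y axis) for 12741 features well above background on all 4 arrays (grey), with dotted lines at 2-fold. RLA-DR-ALPHA lies beyond 2-fold on both axes (1.14 and 2.10), RLA-DMA on the vertical axis alone (−0.30 and 1.95), and the RLA-DMB triangle (2.69 and 2.38) has only a lower bound on the horizontal axis.

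RLA-DMA, which encodes the alpha chain of DM, was the other class II gene that could be named, with 1 probe, and its pattern differed from that of its partner. Its signal was 400.8 ± 40.1 at the ISC level, 280.1 ± 28.0 in the L3/4 control, 949.2 ± 94.9 at the fused levels and 209.0 ± 21.0 in the L2/3-L4/5 control. After scaling, the ISC level minus the L3/4 control was −0.30 ± 0.20 and the fused levels minus their control 1.95 ± 0.20. The first of these turned to 0.05 with normexp and was 0.57 ± 0.20 against the L2/3-L4/5 control. The L3/4 control was higher than the other control by 0.87 ± 0.20 for RLA-DMA, where RLA-DMB was at least 3.15-fold lower. RLA-DMA and RLA-DMB are next to each other in the RefSeq gene order of the assembly mOryCun1.1. Of the 15 protein-coding genes from RLA-DMA to RLA-DR-ALPHA in that order, 4 could be named on the array. The remaining one, LOC100349667, was at 0.21 for the ISC level and 0.64 for the fused levels against their own controls, under 2-fold in both.

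The wider class II pathway was represented by 10 named genes of the 54 symbols listed, both members and RLA-DMA included. At the ISC level 7 were measured on both arrays, of which 1 was higher and 1 lower by 2-fold or more, beside 9.08% of all features higher and 10.5% lower. Their median was −0.56, beside −0.17 for all features. Against the L2/3-L4/5 control 2 of 7 were higher by 2-fold or more and 0 lower, around a median of −0.12. These 2 were RLA-DR-ALPHA and RLA-DMB, the members, which were chosen for such values. The share of all features was not counted for that control. Against the L3/4 control the higher one was RLA-DR-ALPHA. The lower one was CD28, the costimulatory receptor of T cells, at −1.07, which was −0.86 against the L2/3-L4/5 control, −0.95 with the authors' scaling, −0.56 with normexp and −0.16 with its probes averaged. At the fused levels 7 were measured, of which 3 were higher by 2-fold or more (RLA-DR-ALPHA, RLA-DMB and RLA-DMA) and 0 lower, beside 7.84% of all features higher and 9.15% lower. The members among them were chosen for these values. The median of the 7 was −0.08, beside −0.14 for all features.

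The pathway members other than class II chains that were measured on both arrays were under 2-fold apart at the fused levels. RFX5, a subunit of the complex that binds class II promoters, was at −0.56 for the ISC level and −0.60 for the fused levels. CD4, the T cell coreceptor for class II, was at −0.51 and −0.08, and CTLA4, the inhibitory receptor for CD80 and CD86, at −0.66 and −0.28. CTLA4 probes ranged from −0.28 to 1.47 at the fused levels, so its direction there depends on the probe. CD80, a costimulatory ligand on antigen-presenting cells, was at −0.67 for the ISC level and had a lower bound of 0.71 for the fused levels, as it was not well above background in the L2/3-L4/5 control. CD86 was not well above background on any array and CD40LG only at the fused levels.

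**Figure D3:**
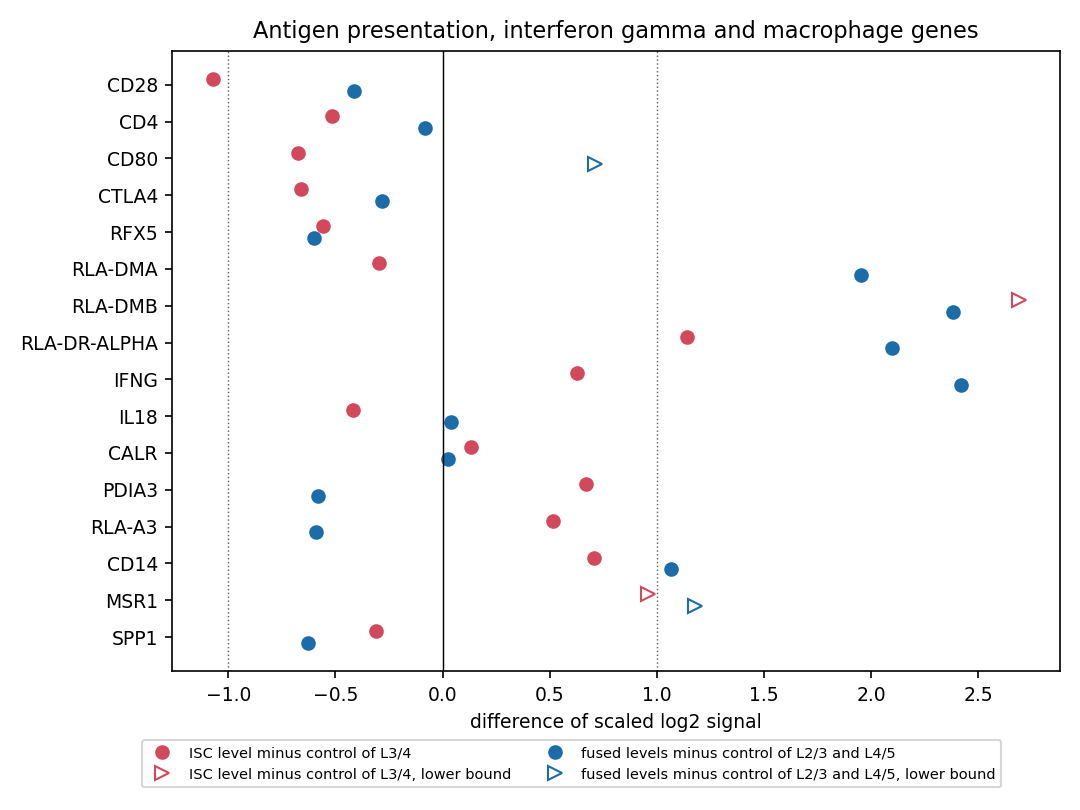
Difference of scaled log2 signal (x axis) for named genes of class II presentation, interferon gamma signalling, class I presentation and macrophages (y axis), for the ISC level minus the L3/4 control (red) and the fused levels minus the L2/3-L4/5 control (blue), with open triangles for lower bounds and dotted lines at 2-fold. The 3 class II chain genes and IFNG lie at 1.95 to 2.42 for the fused levels, while the class I gene RLA-A3 is at −0.59.

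IFNG, which encodes interferon gamma, was higher at the fused levels by 2.42, and by 3.21 against the L3/4 control. At the ISC level it was at 0.63 against its own control and −0.17 against the other, under 2-fold. Its scaled log2 levels were −0.31 at the ISC level, −0.94 in the L3/4 control, 2.28 at the fused levels and −0.14 in the L2/3-L4/5 control. Only the brighter of the 2 IFNG probes was measured on both arrays in the comparisons with each level's own control. Of the 5 named genes of the interferon gamma list, IL18, a cytokine that raises interferon gamma release, was at −0.42 for the ISC level and 0.04 for the fused levels, and IRF1, IL10 and TNF were not well above background on any array. The 3 named genes of class I presentation had none at 2-fold in either comparison. The class I heavy chain gene RLA-A3 was at 0.52 for the ISC level and −0.59 for the fused levels, the chaperone gene PDIA3 at 0.67 and −0.58, and CALR, calreticulin, at 0.13 and 0.02.

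Markers were listed for cells that carry class II. PIGR, the polymeric immunoglobulin receptor, was the only measured gene of the B cell list, too little to read B cells from. It is not taken here as a marker of B cells. At the ISC level 0 of 2 macrophage, 0 of 3 dendritic cell and 0 of 1 B cell list genes were higher by 2-fold or more. Lower by as much were 0, 2 and 1 of them, beside 9.08% of all features higher and 10.5% lower. Against the L2/3-L4/5 control none of them was 2-fold higher or lower. At the fused levels 1 of 2 macrophage, 2 of 4 dendritic cell and 0 of 1 B cell list genes were higher by 2-fold or more. None was lower by as much, beside 7.84% of all features higher and 9.15% lower. Against the L3/4 control 1 of 2, 1 of 3 and 0 of 1 were higher by 2-fold or more. Lower by as much against that control were 1, 2 and 1 of them, namely SPP1, CD1A with CD1B, and PIGR. The share of all features was not counted for comparisons with the control of the other levels, so these counts have nothing to be read against. Of 25 macrophage and monocyte symbols 4 were named. CD14, the lipopolysaccharide coreceptor of monocytes, was at 0.71 for the ISC level and 1.06 for the fused levels, and at 0.22 for the ISC level against the L2/3-L4/5 control. MSR1, a macrophage scavenger receptor, was well above background on the ISC and fused arrays and on neither control, with lower bounds of 0.96 for the ISC level and 1.18 for the fused levels on the log2 scale, the first of them under 2-fold. SPP1, osteopontin, was at −0.31 and −0.63, and CX3CR1 was not well above background on any array. The summed scaled signal of that list, carried mostly by SPP1, was 17.6 at the ISC level, 20.9 in the L3/4 control, 11.4 at the fused levels and 15.1 in the L2/3-L4/5 control. Of 15 dendritic cell symbols 5 were named, with sums of 0.688, 1.46, 1.91 and 1.07 in that order of arrays. The lipid-presenting CD1D was at −0.03 for the ISC level and 1.58 for the fused levels, CD1B at −1.23 and −0.17 and CD1A at −1.96 and −0.57. CD1E, which acts on lipids inside the cell, was at 1.06 for the fused levels and did not pass as well above background on either L3/4 array. Of 16 B cell symbols 2 were named, with IRF4 not well above background on any array, PIGR at −1.75 and −0.54, and sums of 0.180, 0.577, 0.248 and 0.291. Of 22 T and NK cell symbols 6 were named, with sums of 1.59, 1.79, 5.84 and 1.97, the fused value being mostly IFNG, while CD3E was at −1.24 for the ISC level and CD5 at −0.46 and −0.22. The part of these cells in the members' differences was not tested.

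Markers of further cell types differed between the arrays as well. The neutrophil and marrow list had 6 of 7 measured genes at least 2-fold higher at the fused levels (7.84% of all features) and 0 of 7 at the ISC level (9.08%), where 1 was at least 2-fold lower (10.5%). Its summed scaled signal was 8.53 at the ISC level, 14.6 in the L3/4 control, 316.2 at the fused levels and 6.86 in the L2/3-L4/5 control. The red cell sums, over HBA and HBB2, were 433.6, 779.7, 1151.8 and 272.2 in that order. At the ISC level the neutrophil and red cell sums were thus below those of the L3/4 control and above those of the L2/3-L4/5 control. RLA-DR-ALPHA and RLA-DMB were above both controls there. At the fused levels these sums and both members were above both controls. The skeletal muscle sums were 28.3, 28.0, 14.7 and 869.2, so the L2/3-L4/5 control held the most muscle signal of the 4 arrays, and the L3/4 control, with less, was near the ISC level. Adipocyte sums were 7.83, 4.97, 20.0 and 6.07, endothelial sums 2.10, 2.87, 7.44 and 2.09, carried mostly by VCAM1 at the fused levels, and ligament fibroblast sums 742.1, 627.4, 574.3 and 716.2. Their part in the members' differences was not tested either. Ligament identity rested on COL1A2, OGN, DCN, LUM and BGN, which were well above background on all 4 arrays, and on TNMD, a tendon and ligament marker, which was not at the fused levels.

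The named genes most like each member were ranked over the 4 arrays by the root mean square difference of their profiles after each profile's own mean was removed, among 886 named genes well above background throughout. With 4 arrays, this and the Pearson r beside it are descriptions. Among the 5 nearest to RLA-DR-ALPHA were PHKA2, a subunit of phosphorylase kinase, at 0.11 (r = 0.998), PTGS2, cyclooxygenase-2, at 0.19 (r = 0.986), HP, haptoglobin, at 0.21 (r = 0.971) and TACR2, a tachykinin receptor, at 0.24 (r = 0.979). The nearest to RLA-DMB was LPL, lipoprotein lipase, at 0.30 (r = 0.985), higher by 2.43 at the ISC level and by 2.55 at the fused levels, each against its own control. APOD at 0.58, SPTLC1 at 0.65, KCTD12 at 0.65 and E2F6 at 0.66 followed at a distance. The RLA-DMB profile used the lowest signal well above background in the L3/4 control, so these distances carry a bound. No gene was among the 5 nearest to both members.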

How the data were processed

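Ligament RNA was labelled with Cy3, per the labels' protocols, and per the submitters' processing notes Agilent Feature Extraction 12.0.3 read the spots. The deposited values are linear spot intensities, with background and spatial trend already removed array by array and no scaling across arrays, per the file headers. Other deposited columns hold marks for each spot. The authors' deposited value table equals the processed signal times 1 factor per array, between 23.3 and 37.5, with medians of 515.5 (ISC level), 442.3 (L3/4 control), 498.4 (fused levels) and 504.0 (L2/3-L4/5 control). How the factors were chosen is not given in the sources used here.

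Here, log2 of the processed signal had the 75th percentile of that array's non-control probes subtracted, a signal of 53.4 to 93.8 (Python 3.11.15, pandas 2.3.3). Of all probes, 59.6% to 67.9% were well above background. Flagged spots (3 to 7 per array) were left out and spots of a probe averaged. Replicate spots had a median SD on the log2 scale of 0.116 to 0.148, a technical spread over 50 probes. RefSeq accessions without versions were matched to the RefSeq table of mOryCun1.1, which named 3792 of 43603 probes, used for names and gene order alone. A gene stands for its probe with the highest mean scaled signal. With 1 array per group no test was run, and 2-fold is a fixed size. The number of arrays limits the precision. Counting by feature was tried on simulated data with every feature well above background and shifts larger than 2-fold. That checks the arithmetic and not the background filter or the noise of dim spots. The members, the 13 gene lists (246 symbols, 68 named) and the rules were chosen with earlier results of these data known. Named are both members, every class II pathway gene, up to 4 of the brightest genes per marker list and the 5 genes most like each member; CD3E, DCN, TNMD, TNF, IRF1, IL10, the genes of the count over both controls and LOC100349667 were added after their values were seen, and several marker lists are given as sums alone. Some genes that these rules name are not reported here. Alternatives used limma 3.58.1 in R 4.3.3.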

Additional observations from a re-analysis of the deposited data

Results flagged for a closer look

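RLA-DMA had opposite signs in the ISC and fused comparisons with the main processing. The log2 difference was −0.30 ± 0.20 for the ISC level minus the L3/4 control and 1.95 ± 0.20 for the fused levels minus the L2/3-L4/5 control. The difference between them was not tested, as each rests on 1 array a side. Against the control of the other lumbar levels the values were 0.57 and 1.08, of the same sign. With normexp, each against its own control, they were 0.05 for the ISC level and 1.75 for the fused levels, also of the same sign.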

How the results depend on the processing

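Those differences of both genes at the ISC and fused levels that were measured on both arrays kept their direction under every alternative tried. The RLA-DMB bounds could only come out as higher or without a value, so their direction does not bear on this. With normexp (offset 50) RLA-DR-ALPHA was at 0.79 and 1.55 for the ISC and fused levels, RLA-DMB at a bound of 0.52 and at 1.16, and RLA-DMB between the controls at a bound of −0.17. With the mean over probes, RLA-DMB had bounds of 1.92 and 2.60, and RLA-DR-ALPHA between the controls was at −0.19; RLA-DMB between the controls then has no value. RLA-DMB at the ISC level was at 1.03 against the other control and at a bound of 1.86 against the mean of both, and at the fused levels the bounds were 4.04 and 3.21. With the other probes, chosen after seeing the data, RLA-DR-ALPHA was at 1.40, 2.31 and −0.49 (ISC level, fused levels, between controls), and RLA-DMB had bounds of 1.73, 1.99, 1.41 and 1.77 at the ISC level and 2.42, 2.78, 2.57 and 2.83 at the fused levels. Quantile, cyclic loess, other centring and the authors' scaling moved these values by less than the technical spread.

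Features at 2-fold numbered 2687 (ISC level), 2330 (fused levels) and 2309 (between the controls). In that order the counts were 523, 705 and 418 with normexp, 4656, 4033 and 4217 with features above background on at least 1 array, 6093, 5060 and 5121 at 1.5-fold, and 800, 963 and 763 at 3-fold. The share of calls that were higher at the ISC level was 46.4%, 58.9% with the authors' scaling, which moved the median of all features from −0.17 to −0.04, and 66.3% with normexp; it was 46.1% and 62.1% with normexp for the fused levels, and 47.7% and 33.5% for the controls. No paired analysis was possible because each group had 1 array, and the labels carry no replicate numbers. Differences against a group's own control are between arrays of the same lumbar levels, and all others are between different levels. RLA-DMB lies near background in the controls, which limits what can be said of it there.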
